A study of Mus musculus with 34 samples.

Results

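The stretch of mouse chromosome 13 from 65 to 67 Mb (build GRCm38/mm10) was described from every deposited count region whose name gives chromosome 13 and a start within those limits. One list of 248336 regions served both H3K9me3 tables and the repeated H3K27ac libraries, and 349 of its regions are members, as are 263 of the 96988 regions in the list made for H3K27ac in the separate lines. The study measured H3K9me3 and H3K27ac by chromatin immunoprecipitation and sequencing in mouse embryonic stem cells.

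The 34 libraries form 12 groups. In the groups of separate lines, 3 lines of C57BL/6J (B6) and 3 lines of DBA/2J (D2) were profiled for each mark. In the groups of repeated libraries, a single line each of B6, D2 and 2 reciprocal congenic strains was profiled repeatedly, with 3 H3K27ac libraries per line and with 3 (B6, D2-13B6) or 2 (D2, B6-13D2) H3K9me3 libraries. B6-13D2, named B6.D2-(rs30079041-rs51756099)/Bakr, carries a D2 segment of chromosome 13 on the B6 background, and D2-13B6, a D2.B6 strain whose segment starts at rs29224292, carries a B6 segment on the D2 background; the labels name 2 different end markers for it (rs51756099 and rs13469455). All cells were grown in medium with serum, LIF and 2i and fixed with 1% formaldehyde. One antibody source (Active Motif) served all H3K9me3 libraries, whereas the H3K27ac antibody came from abcam for the separate lines and from Cell Signaling for the repeated libraries. Repeated libraries of 1 line share their cells, so p-values from them measure the spread between libraries of that line and not between animals or derivations. Each strain is 1 line there, so a difference that goes with the segment and one that goes with the line cannot be told apart. No input library was analysed here, so more copies of the underlying DNA and more mark per copy cannot be told apart in any value below.

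H3K9me3, trimethylated lysine 9 of histone H3, is the mark of constitutive heterochromatin and of silenced repeats, and in stem cells it is placed largely by SETDB1 with TRIM28, brought to DNA by KRAB zinc-finger proteins. H3K27ac, acetylated lysine 27, is found at active promoters and enhancers, so the marks usually occupy different places. The stretch lies next to a large zinc-finger gene cluster of chromosome 13.

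GENCODE M21 places 116 genes in the stretch, of which 16 are protein-coding, 76 are pseudogenes, 20 are lincRNAs and 4 are of other kinds. In the shared list, 178 regions were intergenic, 81 lay in 16 lincRNAs, 55 in 15 pseudogenes, 34 in 11 protein-coding genes and 1 in a gene of another kind. Of the 24 protein-coding zinc-finger genes fixed as a list for the neighbourhood, only Zfp369 lies inside the limits. The pseudogene Zfp640 (chr13:66669928-66698243), which is not on that list, also lies inside them. Much of the DNA is repeated nearby: of all 75-base windows in the stretch, the length of a read, 45.0% occur once on the 21 chromosomes, 46.4% occur again only inside the stretch and 8.68% also occur elsewhere.

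The sequences below are shown because they set a unique and a repeated region side by side. They are from GRCm38.p6, written 5′ to 3′ on the strand given, and capitals mark bases covered by at least 1 75-base window that occurs once. The first pair are intergenic neighbours 292 bp apart: 16.5% of the windows of the first occur once, and 90 of its 171 bases lie in such a window, while 100% of the windows of the second do. The third lies in an intron of the lincRNA gene Gm48170 and has an identical copy 840 kb away on the other strand. The last, in an intron of Mfsd14b, lies outside the block of raised signal described next.
Pair, first (chr13:65475230-65475400, plus strand): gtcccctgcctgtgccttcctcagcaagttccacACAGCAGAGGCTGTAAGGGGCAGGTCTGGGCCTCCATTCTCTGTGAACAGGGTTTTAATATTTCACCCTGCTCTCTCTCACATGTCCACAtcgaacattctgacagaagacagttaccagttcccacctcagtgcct
Pair, second (chr13:65475693-65475870, plus strand): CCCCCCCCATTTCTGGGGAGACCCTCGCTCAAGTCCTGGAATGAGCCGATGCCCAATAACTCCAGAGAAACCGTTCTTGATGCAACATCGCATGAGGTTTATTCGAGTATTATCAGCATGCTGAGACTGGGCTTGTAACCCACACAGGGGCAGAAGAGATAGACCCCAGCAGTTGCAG
Repeated (chr13:65619001-65619178, plus strand): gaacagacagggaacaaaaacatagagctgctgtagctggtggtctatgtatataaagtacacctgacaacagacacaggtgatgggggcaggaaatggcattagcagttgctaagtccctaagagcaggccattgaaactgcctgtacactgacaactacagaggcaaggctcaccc
Copy of repeated (chr13:66459090-66459267, minus strand): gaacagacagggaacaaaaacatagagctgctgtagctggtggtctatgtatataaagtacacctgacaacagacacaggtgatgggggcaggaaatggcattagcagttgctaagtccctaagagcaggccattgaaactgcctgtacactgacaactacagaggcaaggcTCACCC
Flank (chr13:65100820-65101026, plus strand): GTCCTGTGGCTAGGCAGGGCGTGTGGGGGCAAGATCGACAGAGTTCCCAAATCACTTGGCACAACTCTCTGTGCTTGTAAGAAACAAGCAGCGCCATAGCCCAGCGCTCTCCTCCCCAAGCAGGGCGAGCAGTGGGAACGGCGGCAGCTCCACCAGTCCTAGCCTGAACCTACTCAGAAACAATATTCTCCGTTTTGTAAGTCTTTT

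Levels below are in CPM, that is, counts scaled to the library's total over tested regions and corrected for composition by TMM. In the repeated libraries, the first of the pair held H3K9me3 at 13.6 CPM in B6, 68.7 in B6-13D2, 57.4 in D2 and 8.23 in D2-13B6 (means of 2 or 3 libraries). Its unique neighbour held 9.63, 75.5, 62.9 and 6.94 CPM in the same order. The repeated region of Gm48170 went from 2.22 CPM in B6 to 169 in B6-13D2 and from 1.63 in D2-13B6 to 112 in D2. The flank region in Mfsd14b stayed between 1.36 and 2.53 CPM in the 4 lines. The first 3 lie inside the block, whose limits were set from these contrasts, so their values are a description.

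The question these lines address is whether a difference between B6 and D2 goes with the chromosome 13 segment or with the rest of the genome. For the stretch as a whole, both marks were high wherever the D2 segment was present. Per library, the share of all H3K9me3 counts that fell in the stretch was 0.254 ± 0.018% in B6 (SD, n = 3), 0.169 ± 0.018% in D2-13B6 (n = 3), 1.76 ± 0.22% in D2 (n = 2) and 2.77 ± 0.39% in B6-13D2 (n = 2). The H3K27ac shares were 0.257 ± 0.0069%, 0.252 ± 0.019%, 2.82 ± 0.0028% and 3.19 ± 0.023% in the same order (n = 2 each). In each line, the counts of 2 of the 3 H3K27ac libraries differed by no more than sampling noise, so that pair was counted as 1 sample and n is 2 per line for that mark. Over the 3 single libraries the SD of the share was 0.0065, 0.016, 0.032 and 0.027 percentage points in the same order of lines. The stretch contains 0.141% of the regions of that list. With the D2 segment the H3K9me3 share was 10.9 times as high on the B6 background and 10.4 times on the D2 background, and the H3K27ac share 12.4 and 11.2 times.

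In the tables of separate lines D2 also stood above B6, with a smaller ratio. These tables do not use other lines throughout: per the labels, the line of the repeated B6 libraries is also B6 replicate 3 of the separate lines, and that of the repeated D2 libraries is D2 replicate 2. For H3K9me3, whose list is the same in both tables, that D2 line had 0.911% of its counts in the stretch in the separate-line table and 1.61 and 1.92% in the repeated libraries, and that B6 line had 0.310% and 0.238 to 0.273%. Over all lines, H3K9me3 counts in the stretch made up 0.316 ± 0.024% of a library in the B6 lines and 0.889 ± 0.074% in the D2 lines (n = 3 each), a ratio of 2.82. H3K27ac gave 0.282 ± 0.0084% and 0.796 ± 0.037%, again a ratio of 2.82. All D2 lines lay above all B6 lines in both marks, and the exact two-sided permutation test gave p = 0.1, the smallest that 3 against 3 allows.

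Region by region, nearly every tested member was higher with the D2 segment. For H3K9me3 in B6-13D2 against B6, 316 members passed the filter on low counts, and 304 were called higher and 1 lower by edgeR's quasi-likelihood test (Benjamini-Hochberg adjusted p under 0.05), where 1.23% of all tested regions of the genome were called higher and 0.458% lower. The median log2 fold change was 3.83 over the members and -0.03 over all tested regions. In D2 against D2-13B6, 302 of 316 were called higher and 0 lower (genome 1.81% and 0.395%), with a median of 3.63. For H3K27ac, 307 of 344 members were called higher and 9 lower in B6-13D2 against B6 (genome 7.60% and 5.40%, median 4.34), and 302 higher and 7 lower in D2 against D2-13B6 (genome 1.44% and 5.24%, median 4.04). Of the 315 members tested for both marks, 303 rose in both on the B6 background and 300 on the D2 background, against 0.455% and 0.386% of all regions tested for both. Without D2-13B6 replicate 1, a library that differed from the other repeats of its line in both marks, D2 against D2-13B6 gave 303 higher H3K9me3 members and 305 higher H3K27ac members.

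Parental D2 against B6 in the repeated libraries gave a like count. H3K9me3 was called higher in 299 members and lower in 1 (genome 4.58% and 6.76%, median 3.20), and H3K27ac higher in 307 and lower in 15 (genome 14.7% and 13.4%, median 4.15). In the separate lines, H3K9me3 was called higher in D2 in 265 of 304 members and lower in 9 (genome 17.3% and 17.4%, median 2.13). H3K27ac was higher in 231 of 263 and lower in 15 (genome 24.3% higher and 49.3% in either direction, median 2.00).

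The raised members formed 1 run. Its limits were set after the values were seen, as the first and last of the regions higher in both marks and both backgrounds: chr13:65335457-66835419, 1.5 Mb long with 303 regions, of which 300 were higher in all 4 of those contrasts. Before it lie 27 regions and after it 19. Of the 303, every H3K9me3 library of B6-13D2 exceeded every one of B6 in 303, and D2 exceeded D2-13B6 in 303; for H3K27ac the counts were 303 and 302. Of all tested regions of the genome, 13.0% and 13.2% did so for H3K9me3 and 26.5% and 20.5% for H3K27ac. The limits of the block were drawn from these contrasts, so nothing is read from the counts inside it. Among the 13 flank regions tested for H3K9me3, 1 rose and 1 fell in B6-13D2 against B6, and neither was called in D2 against D2-13B6. The median H3K9me3 level over the 303 regions was 7.94 CPM in B6, 144 in B6-13D2, 88.9 in D2 and 5.79 in D2-13B6. The H3K27ac medians were 3.51, 112, 102 and 3.74 CPM. In B6-13D2, 298 of the 303 regions were in the top 1% of all regions of the genome for H3K9me3 and 251 for H3K27ac, against 16 and 1 in B6.

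**Figure D1:**
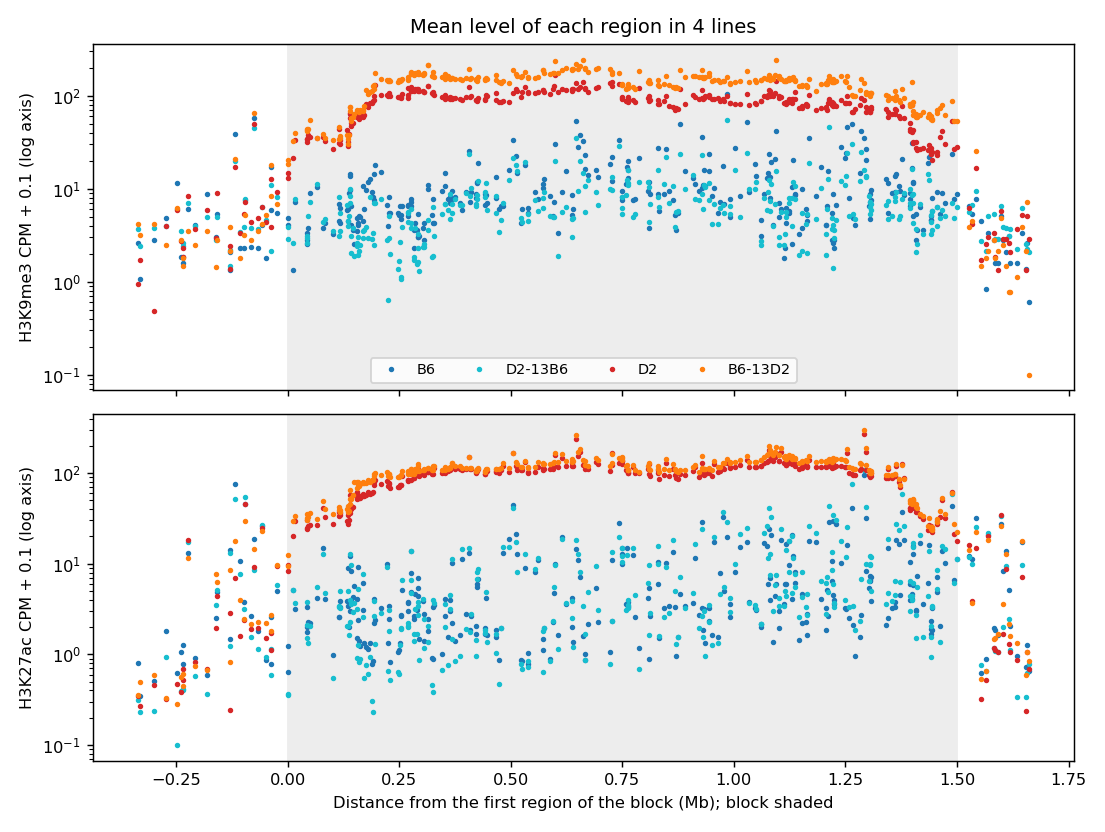
Mean CPM (log axis, with 0.1 CPM added) of each region against its distance in Mb from the first region of the block, for H3K9me3 and H3K27ac in the 4 repeated lines. Inside the shaded block B6-13D2 and D2 lie far above B6 and D2-13B6 in both marks at most regions, and a few regions are nearly level between lines. Outside it single regions differ between lines in either direction.

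Within the block the level differed with position. In 100 kb windows the median H3K9me3 level of B6-13D2 was 40.2 CPM at 65.3 Mb and 53.7 at 65.4 Mb, stood between 104 and 190 CPM from 65.5 to 66.6 Mb, and was 66.0 and 39.0 CPM in the last windows of the block. The D2 line had the same shape, with 32.6, 47.5, 71.3 to 117, 31.3 and 21.7 CPM. H3K27ac of B6-13D2 followed it with 30.8, 49.7, 93.0 to 152, 42.1 and 22.3 CPM. In these windows both marks were lower at the ends of the block than in its middle in both lines with the D2 segment. Some changes were abrupt. Across the gap chr13:66618780-66619128 the median H3K27ac of the 3 regions before and the 3 after was 112 and 188 CPM in B6-13D2 and 95.7 and 172 in D2, and across chr13:66632531-66637378 it was 188 and 105, and 172 and 95.8. The steepest H3K9me3 steps were from 212 to 162 CPM in B6-13D2 (chr13:65660255-65660361) and from 138 to 94.9 CPM in D2 (chr13:66064515-66077283). Across the 303 regions the rank correlation of H3K9me3 with H3K27ac was 0.66 in B6-13D2 and 0.60 in D2, against 0.36 in B6 and 0.46 in D2-13B6, a description over regions that share libraries and position.

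In the shared list the added signal hardly depended on region width for H3K9me3 and rose weakly with it for H3K27ac. Narrow regions (under 300 bp, n = 86), middle ones (n = 157) and wide ones (1000 bp or more, n = 60) had median H3K9me3 differences of 132, 136 and 134 CPM between B6-13D2 and B6, and of 80.8, 80.5 and 82.0 CPM between D2 and D2-13B6. Per kilobase of region, the first of these differences therefore fell from 550 CPM in narrow to 91.4 CPM in wide regions. H3K27ac differences were 103, 108 and 121 CPM in B6-13D2 against B6 and 92.9, 97.7 and 104 CPM in D2 against D2-13B6. Their rank correlations with width were 0.26 and 0.22. The levels in the B6 line did go with width: the rank correlation of H3K9me3 with width was 0.44 there, against 0.09 for the added H3K9me3 signal. H3K9me3 differences between D2 and B6 in the separate lines were 28.0, 28.3 and 29.7 CPM by class. In the list made for H3K27ac in the separate lines, where 173 of 227 block regions are 1000 bp or wider, the added signal did go with width. Its median was 9.45 CPM in the 53 middle regions and 16.6 CPM in the wide ones, with a rank correlation of 0.73 with width.

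**Figure D2:**
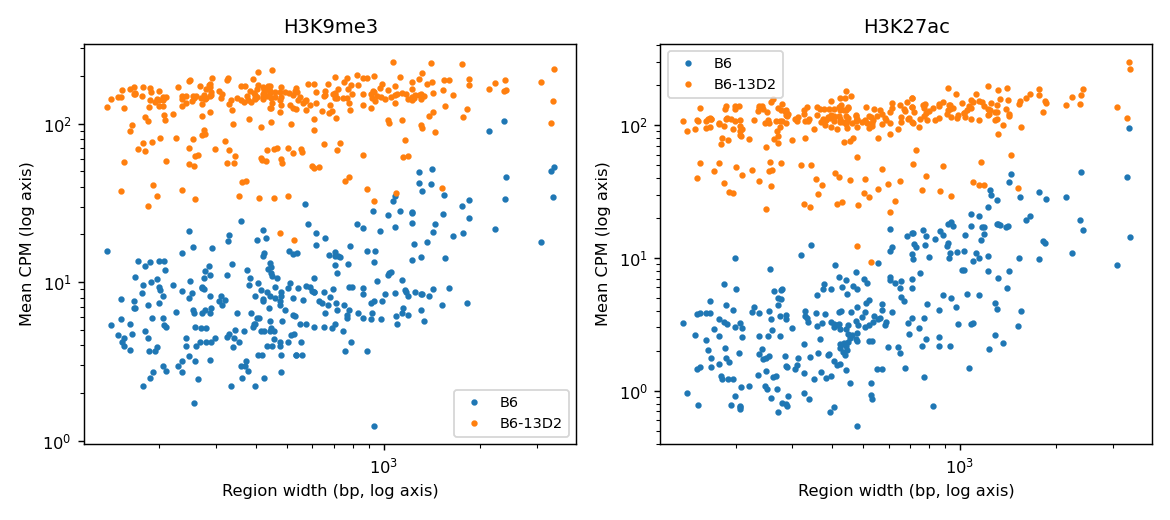
CPM of each block region against its width in bp (both axes logarithmic) for B6 and B6-13D2 in each mark. The B6 points climb with width, and the B6-13D2 points climb less, with medians of 139 CPM for narrow and 151 CPM for wide regions in H3K9me3 and of 104 and 138 CPM in H3K27ac.

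The 10 regions nearest the midpoint of the block show the weak dependence on width in the shared list in raw counts. They span 36.9 kb (chr13:66062286-66099184) and are 137 to 2230 bp wide, a ratio of 16.3. In the B6-13D2 H3K9me3 libraries they held 151 to 220 and 199 to 310 reads, so the highest was 1.46 and 1.56 times the lowest. In the D2 libraries they held 85 to 141 and 122 to 197 reads. The B6 libraries held 7 to 50 reads in them. H3K27ac counts ran from 1130 to 1832 in B6-13D2 and from 853 to 1574 in D2, against 25 to 290 in B6.

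Neighbouring regions less than 20 kb apart were then compared within each library by the squared difference of their counts divided by the sum, which has a median of 0.455 where 2 counts share a mean and vary independently by counting alone. In the H3K9me3 libraries with the D2 segment, the median inside the block was 0.243 and 0.213 in B6-13D2 and 0.153 and 0.216 in D2. These neighbours were more alike than independent counting gives. In the same libraries, regions elsewhere in the genome had medians of 4.45 to 8.02. Inside the block the B6 and D2-13B6 libraries had medians of 4.83 to 12.8. For H3K27ac the block medians were 1.72 to 2.01 with the D2 segment, against 28.7 to 33.6 elsewhere in those libraries and 15.3 to 23.7 in the block of the other lines. In the separate lines the H3K9me3 medians were 1.02 to 1.47 in D2 and 22.7 to 28.2 in B6, while the H3K27ac medians, on its own list of wider regions, were at least 79.8 in B6 and 97 to 105 in D2. A sum of counts also has an upper limit if each read start on each strand is kept once. Taking reads as single-end, 137 to 147 of the 303 block regions exceeded it in the repeated H3K27ac libraries of B6-13D2 and 81 to 101 in those of D2. In the repeated H3K27ac libraries of B6 and D2-13B6, 0 did. Of the regions elsewhere, 0.0145 to 0.0157% exceeded it in the same B6-13D2 libraries and 0.00927 to 0.0105% in the same D2 libraries. In the H3K9me3 libraries and the H3K27ac libraries of the separate lines, 0 block regions exceeded it. The names of the value columns label the alignments as free of duplicates (nodups), but how duplicates were removed is not given. How reads that span several regions and repeated alignments were counted is not given in the sources used here either. The part of these steps in the values was not tested.

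**Figure D3:**
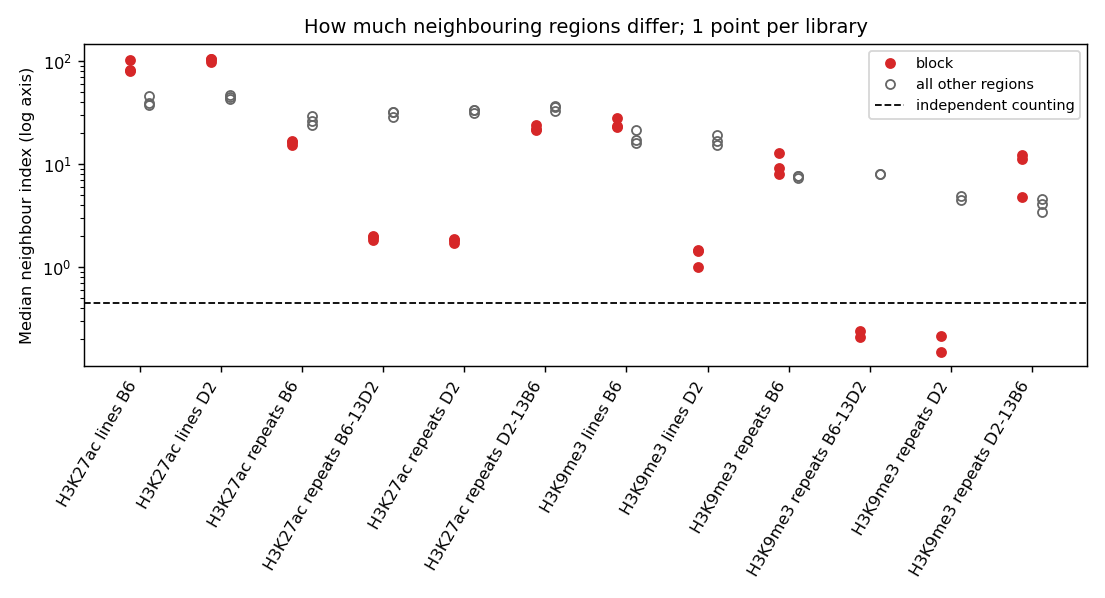
Median neighbour index (squared difference of neighbouring counts over their sum) per library, for block regions and for all other regions, by table and line. The dashed line is at 0.455, the median for independent counting, and the H3K9me3 block values of B6-13D2 and D2 lie below it, between 0.153 and 0.243.

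Repeated sequence was common in the block, and its fold changes were of like size in regions with few and with many unique windows, while its levels were lowest in the most unique ones. The median block region had 50.5% of its 75-base windows unique in the genome, against 100% in the flanks. The median H3K9me3 log2 fold change of B6-13D2 against B6 was 3.94 in the 61 regions under 25% unique, 3.77 in the 88 from 25 to 50%, 3.90 in the 135 from 50 to 90% and 3.68 in the 19 at 90% or more. The H3K27ac medians were 4.81, 4.48, 4.91 and 4.64. Median H3K9me3 levels in these classes were 145, 142, 145 and 90.1 CPM in B6-13D2 and 91.9, 86.3, 90.6 and 62.9 in D2, and 7.87, 8.41, 7.71 and 5.44 in B6. Median H3K27ac levels were 121, 115, 110 and 83.3 CPM in B6-13D2 and 109, 108, 98.2 and 61.7 in D2. The most unique class was also the narrowest, with a median width of 261 bp against 442 to 504 bp. Copies of a repeated read inside the stretch cannot be told apart, so a value of a region with few unique windows may hold reads from its other copies. How such reads were placed is not given in the sources used here.

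In the shared list the block holds regions of 2 protein-coding genes, and both rose in every segment contrast. Gm10324 (chr13:66119547-66122836) has 1 region. Its H3K9me3 was 25.4, 15.2 and 22.8 CPM in B6, 186 and 187 in B6-13D2, 111 and 129 in D2 and 10.8, 16.4 and 7.73 in D2-13B6. The groups did not overlap: log2 fold changes were 3.13 ± 0.23 (SE) for B6-13D2 against B6 and 3.36 ± 0.26 for D2 against D2-13B6 (edgeR quasi-likelihood, adjusted p 2e-08 and 5.6e-08). Its H3K27ac was 1.15 and 1.01 CPM in B6, 104 and 103 in B6-13D2, 102 and 97.4 in D2 and 0.305 and 0.888 in D2-13B6. In both marks every library with the D2 segment lay above every one without it, and in the separate lines D2 exceeded B6 by 1.47 ± 0.21 in H3K9me3 and 3.07 ± 0.11 in H3K27ac on the log2 scale.

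2410141K09Rik (chr13:66418114-66441118, minus strand) has 5 regions in the shared list. Summed over them, its H3K9me3 was 86.4, 73.8 and 74.4 CPM in B6, 818 and 934 in B6-13D2, 508 and 586 in D2 and 42.3, 26.9 and 24.6 in D2-13B6. Its H3K27ac was 15.7 and 16.8, 834 and 846, 760 and 687, and 17.5 and 29.5 CPM in the same order of lines. The line with the D2 segment was higher on both backgrounds. Log2 fold changes in H3K9me3 were 3.48 ± 0.16 on the B6 and 4.15 ± 0.18 on the D2 background. In H3K27ac they were 5.70 ± 0.16 and 4.90 ± 0.15. H3K9me3 in the separate lines was 166, 133 and 152 CPM in B6 and 486, 365 and 317 in D2.

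Another protein-coding gene of the block, Gm10772 (chr13:66227319-66227573, minus strand), has a region in the H3K27ac list of the separate lines alone. It held 7.13, 8.0 and 7.41 CPM in B6 and 42.6, 46.8 and 46.1 in D2, with no overlap, a log2 fold change of 2.59 ± 0.08 (edgeR quasi-likelihood, adjusted p 4.1e-17).

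The flanks hold regions of the other 9 protein-coding genes of the shared list. Mfsd14b, of the major facilitator family of membrane transporters, Olfr466, an olfactory receptor, Nlrp4f, of a family of cytoplasmic NLR proteins expressed in the oocyte, and Zfp369, a zinc-finger protein, lie before the block together with Spata31d1c and Gm10775. Gm10767, Mterf3, a mitochondrial transcription factor, and Ptdss1, a phosphatidylserine synthase, lie after it. Uqcrb, a subunit of mitochondrial complex III, also lies after the block and was assigned a region in the H3K27ac list of the separate lines alone, with 22.9 to 25.7 CPM in B6 and 21.3 to 23.9 in D2, which overlap (-0.12 ± 0.08, adjusted p 0.20). Of the 9, 7 passed the filter for H3K9me3. Their log2 fold changes ran from -1.32 ± 0.61 (Olfr466) to 0.31 ± 0.26 (Zfp369) for B6-13D2 against B6, and from -0.81 ± 0.53 (Mterf3) to 0.72 ± 0.48 (Nlrp4f) for D2 against D2-13B6, with adjusted p of at least 0.77 and 0.68 by edgeR's quasi-likelihood test. Gm10775, the highest of them, held 52.3 to 61.0 CPM in B6, 60.2 and 69.7 in B6-13D2, 57.3 and 41.1 in D2 and 36.5 to 54.9 in D2-13B6, with overlap between lines. Its H3K27ac was 18.6 and 19.2 CPM in B6, 14.7 and 14.1 in B6-13D2, 8.89 and 9.32 in D2 and 8.13 and 8.55 in D2-13B6, with the 2 lines on the D2 background lowest. Zfp369 held 24.3 to 36.3 CPM in B6 and 31.1 and 39.7 in B6-13D2 in the repeated libraries. Among the separate lines its H3K9me3 was lower in D2, at 22.2, 18.1 and 16.5 CPM against 35.9, 47.9 and 46.1 in B6 (log2 fold change -1.19 ± 0.26, adjusted p 0.00065), although D2 against D2-13B6 gave 0.17 ± 0.29 (adjusted p 0.90).

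H3K27ac at Nlrp4f went the other way from the block. It was 18.3 and 19.2 CPM in B6, 13.5 and 15.9 in B6-13D2, 16.8 and 19.2 in D2-13B6 and 6.84 and 7.16 in D2. D2 was the lowest line, with log2 fold changes of -1.38 ± 0.16 against D2-13B6 (adjusted p 9.8e-09) and -0.36 ± 0.14 for B6-13D2 against B6 (adjusted p 0.063). Under some other settings of edgeR's quasi-likelihood test B6-13D2 was called lower than B6. Without summing libraries the change was -0.38 (adjusted p 0.0054), and when scaled to library totals -0.50 (adjusted p 0.011). The separate lines gave 51.0, 41.6 and 43.3 CPM in B6 and 27.5, 26.3 and 28.3 in D2 (-0.73 ± 0.08). An intergenic region upstream of Nlrp4f, chr13:65216668-65218981, chosen after its values were seen, held H3K27ac at 82.8 and 68.4 CPM in B6, 17.4 and 18.0 in B6-13D2, 8.39 and 5.45 in D2 and 52.9 and 50.3 in D2-13B6. Its log2 fold changes with the D2 segment were -2.08 ± 0.14 and -2.83 ± 0.16 (adjusted p 1e-15 and 1.6e-18). H3K9me3 there was lower as well in B6-13D2, at 16.9 and 24.6 CPM against 34.6 to 40.3 in B6 (-0.88 ± 0.25, adjusted p 0.043), and was not called in D2 against D2-13B6 (-0.16 ± 0.31, adjusted p 0.92). In all, 5 of the 24 proximal flank regions tested for H3K27ac fell in B6-13D2 against B6 and 4 rose, and 5 fell and 1 rose in D2 against D2-13B6, where 5.40% of all tested regions were lower and 7.60% higher in the first contrast and 5.24% and 1.44% in the second.

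After the block, 1 region carried opposite changes in the marks. chr13:66877788-66879467, an intergenic region also chosen after its values were seen, held H3K9me3 at 6.63 to 9.13 CPM in B6, 20.3 and 30.1 in B6-13D2, 15.5 and 17.9 in D2 and 8.99 to 9.71 in D2-13B6. Its H3K27ac was 32.4 and 31.2 CPM in B6, 20.8 and 23.7 in B6-13D2, 15.7 and 14 in D2 and 27.7 and 23.4 in D2-13B6. The H3K9me3 rise in B6-13D2 passed the test (1.71 ± 0.32, adjusted p 4.3e-05) and the difference between D2 and D2-13B6 did not (0.83 ± 0.35, adjusted p 0.29). H3K27ac fell in both contrasts, by 0.50 ± 0.14 and 0.76 ± 0.15 on the log2 scale. H3K9me3 of the separate lines was 11.5 CPM in B6 and 70.8 in D2. Ptdss1 showed H3K27ac of 73.5 and 79.6 CPM in B6 and 61.2 and 52.2 in D2, and neither segment contrast was called (-0.19 ± 0.11 and -0.07 ± 0.11, adjusted p 0.25 and 0.82).

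Counted by gene, 31 of 39 tested genes of the stretch rose in H3K9me3 and 0 fell in both segment contrasts, where 0.292% and 0.158% of all tested genes were called higher and lower on the B6 background and 0.264% and 0.0742% on the D2 background. For H3K27ac 31 of 41 rose in both, and 2 and 1 fell (genome 9.67% higher and 17.7% in either direction, then 2.73% and 9.37%). The separate lines gave 26 genes higher and 1 lower of 35 in H3K9me3 (genome 10.6% and 7.80%), and 42 higher and 8 lower of 56 in H3K27ac (genome 35.2% and 21.7%), or 77 genes called when a region counted for every gene it overlaps.

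Of the 76 pseudogenes of the stretch, 14 were tested for H3K9me3 in the repeated libraries. Of these, 14 rose in both segment contrasts, and for H3K27ac 14 of 14 rose in both as well. Gm48165 (chr13:65487439-65624203), which spans 29 regions, had summed H3K9me3 of 233, 203 and 242 CPM in B6, 3365 and 4122 in B6-13D2, 2398 and 2945 in D2 and 112, 119 and 104 in D2-13B6. Its log2 fold changes were 4.05 ± 0.12 and 4.58 ± 0.12. Vmn2r-ps104, a vomeronasal receptor pseudogene, went from 33.2 to 52.5 CPM in B6 to 562 and 588 in B6-13D2, and its H3K27ac from 11.3 and 12.2 to 532 and 542 CPM. Gm19428 and Gm48185 had H3K9me3 log2 fold changes of 4.27 ± 0.19 and 4.36 ± 0.20 for B6-13D2 against B6. The smallest changes among the pseudogenes were those of Gm45965 (2.42 ± 0.23) and Gm38428 (3.07 ± 0.23), both processed copies. In the separate lines these 2 pseudogenes were not called for H3K9me3 (0.28 ± 0.18 and 0.52 ± 0.24, adjusted p 0.32 and 0.13), while their H3K27ac rose by 1.90 ± 0.08 and 1.72 ± 0.09.

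Among the lincRNAs, 14 of 15 tested rose in H3K9me3 and 14 of 16 in H3K27ac, in both segment contrasts. Gm26754 (chr13:66244270-66451277), with 32 regions, held H3K9me3 at 514, 469 and 452 CPM in B6, 4655 and 5154 in B6-13D2, 2846 and 3207 in D2 and 327, 321 and 257 in D2-13B6. Its log2 fold changes were 3.36 ± 0.11 and 3.33 ± 0.11. Platr2, a pluripotency-associated transcript, had H3K9me3 of 187, 177 and 144 CPM in B6 and 1908 and 2515 in B6-13D2, with H3K27ac of 125 and 139 against 1735 and 1683 CPM. The largest change among the 4 highest lincRNAs was at Gm48166, with H3K9me3 of 15.3, 19.0 and 18.4 CPM in B6 and 766 and 975 in B6-13D2 (5.62 ± 0.21), and a change of 5.87 ± 0.23 in D2 against D2-13B6. Gm26715 had the smallest change in the block, 1.82 ± 0.20 and 2.14 ± 0.23, from an H3K9me3 level of 45.6 to 60.3 CPM in B6. In the separate lines its H3K9me3 was 114, 77.2 and 73.8 CPM in B6 and 94.6, 86.1 and 68.4 in D2, which overlap (-0.09 ± 0.19, adjusted p 0.80), while its H3K27ac rose from 9.88 to 10.7 CPM to 65.6 to 78.4. Gm36445 lies before the block, where its H3K27ac was lower in B6-13D2 (31.6 and 27.1 CPM) than in B6 (42.2 and 48.5), by 0.61 ± 0.12 on the log2 scale (adjusted p 0.00029), and by 0.44 without B6-13D2 replicate 2, where the call was lost (adjusted p 0.096). D2, at 48.1 and 43.5 CPM, was not called against D2-13B6, at 58.3 and 50.2 (-0.24 ± 0.12, adjusted p 0.23).

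**Figure D4:**
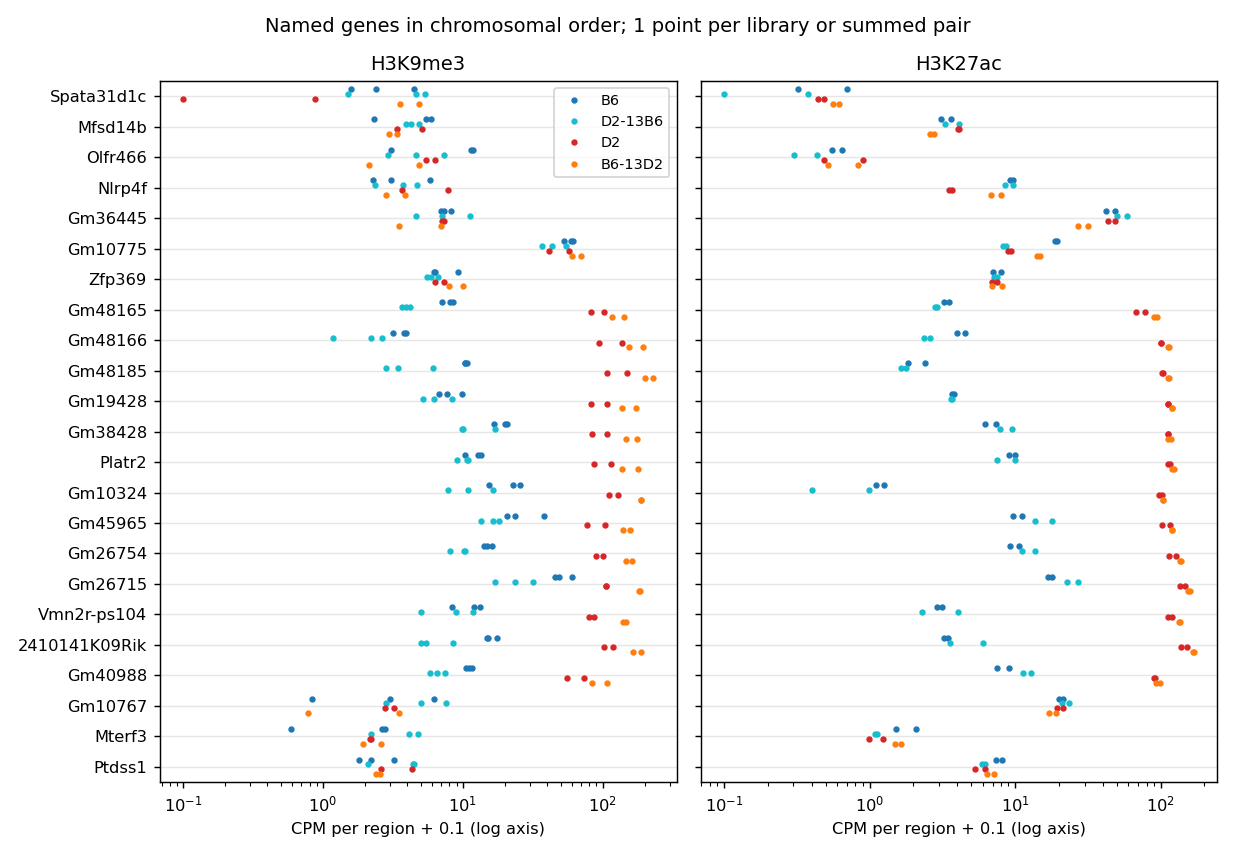
Mean CPM per region (log axis, with 0.1 CPM added) of the 23 named genes of the shared list in chromosomal order, for each repeated line and mark. Genes inside the block stand high in B6-13D2 and D2 in both marks. Outside it, H3K27ac of Gm10775 was 18.6 and 19.2 CPM in B6 and 8.89 and 9.32 in D2.

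The 7 regions with the highest mean level of either mark had smaller H3K9me3 log2 fold changes than the median of the block, 0.63 to 2.98 against 3.87 for B6-13D2 against B6. They were picked by the mean over libraries of all 4 lines, which favours regions already high without the D2 segment. Their smaller fold changes follow in part from that choice and are a description. The region with the highest H3K9me3 averaged over the 10 libraries, chr13:66319486-66321857 in an intron of Gm26754 (99.6 CPM), is the fifth by the mean of the 4 line means (105 CPM), by which chr13:65933382-65935141 is the highest at 114 CPM. It held 104 ± 4.3 CPM in B6, 161 ± 7.0 in B6-13D2, 99.2 ± 9.9 in D2 and 54.7 ± 9.1 in D2-13B6 (SD, n = 3, 2, 2 and 3). Its log2 fold changes were 0.63 ± 0.15 and 0.87 ± 0.18, and in the separate lines B6 and D2 were level (157 ± 22 and 154 ± 10 CPM, adjusted p 0.91). An exon of Gm40987, chr13:65980865-65984257, held 53.0 ± 8.8, 222 ± 34, 137 ± 28 and 35 ± 4.7 CPM. The region with the highest H3K27ac, chr13:66624895-66628272, held 94.6 ± 8.6 CPM in B6, 298 ± 9.4 in B6-13D2, 271 ± 12 in D2 and 108 ± 18 in D2-13B6, and rose by 1.66 ± 0.13 and 1.32 ± 0.13.

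Only 3 block regions missed the test in any of the 4 segment contrasts. chr13:66599155-66602476, 3322 bp wide and 92.5% unique, held H3K27ac at 96.7 CPM in D2 and 75.3 in D2-13B6 (0.35, adjusted p 0.095). chr13:66822747-66824193 held H3K27ac at 62.3 and 58.1 CPM in those lines (0.10, adjusted p 0.77), while its H3K9me3 went from 6.85 to 52.9 CPM. chr13:66770158-66770586, near the far end, held H3K9me3 at 26.0 CPM in D2 and 14.4 in D2-13B6 (0.87, adjusted p 0.12). In the separate lines the first of these had the largest H3K9me3 fall of the stretch, from 123 ± 13 CPM in B6 to 31.2 ± 4.6 in D2 (n = 3), and it was 1 of 7 block regions of 297 tested called lower in D2 there, where 17.4% of all tested regions were.

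**Figure D5:**
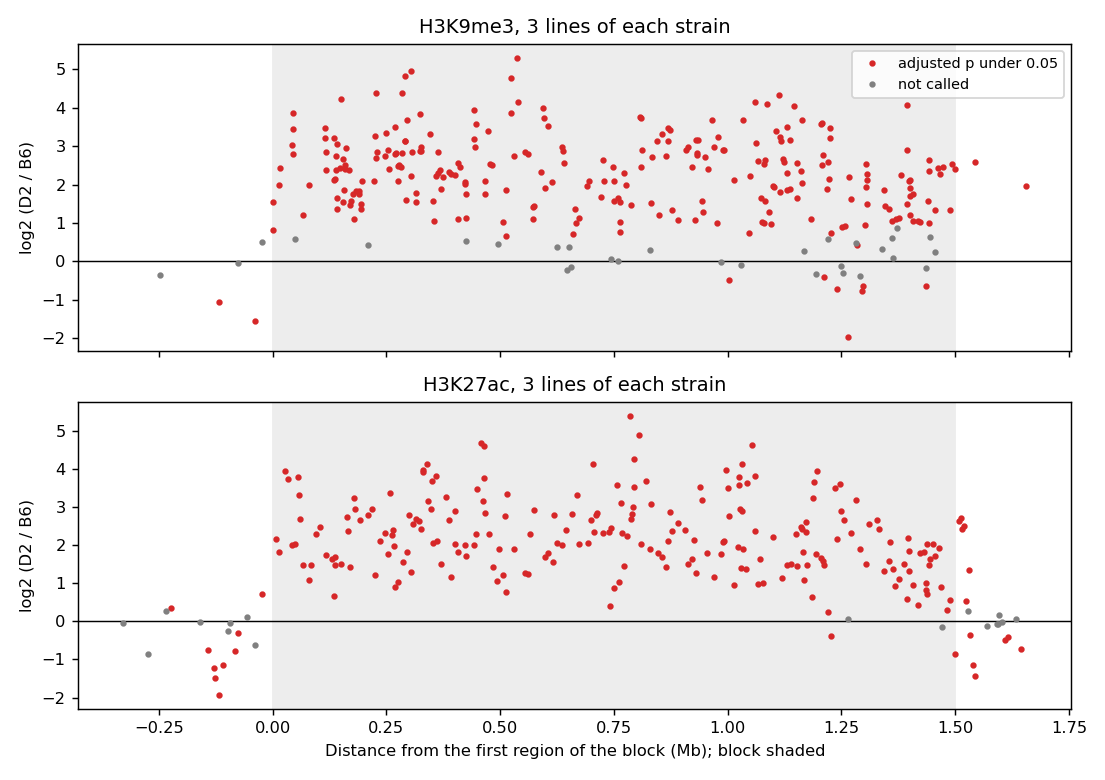
Log2 fold change of D2 against B6 in the separate lines for each region, by distance in Mb from the first region of the block, for both marks. Most block regions lie above 0, with medians of 2.15 for H3K9me3 and 2.10 for H3K27ac, and the flanks hold values on both sides.

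Lines with the same segment also differed from each other in H3K9me3. With the D2 segment, B6-13D2 had more H3K9me3 than D2: 213 of 316 members were called lower in D2 and 0 higher (genome 5.37% and 2.86%, median -0.64). For H3K27ac 44 of 344 were lower and 3 higher (genome 13.1% each, median -0.18). The share of members called lower, 12.8%, was near that of the genome, and the share called higher, 0.872%, was below it. These counts rest on single libraries: without B6-13D2 replicate 2 the H3K9me3 count was 27, and without D2 replicate 1 it was 54. They also moved with the processing, the 213 to 72 with DESeq2 and to 50 when regions needed a mean of at least 20 counts. The H3K27ac total of 47 was 10 without D2 replicate 2, 26 without B6-13D2 replicate 2, 30 without B6 replicate 3 and 103 without D2 replicate 3, and it was 22 with no filter and 154 to 217 under 5 other settings. With the B6 segment, D2-13B6 had less H3K9me3 than B6 in 69 members and more in 0 (genome 12.2% and 8.75%, median -0.51), a total that was 40 without B6 replicate 1, 42 without D2-13B6 replicate 2 and 40 without D2-13B6 replicate 3, and 28 to 38 under 3 other settings. H3K27ac was higher in D2-13B6 in 63 members and lower in 39 (genome 17.2% and 13.1%), shares of 18.3% and 11.3% that are near those of the genome, or in 55 and 87 when scaled to library totals.

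The size of the segment difference was compared between backgrounds by an interaction term, the log2 fold change of B6-13D2 against B6 minus that of D2 against D2-13B6. For H3K9me3, 0 of 316 members were called by edgeR's quasi-likelihood test (genome 0.389%). At an unadjusted p under 0.05 there were 40, or 12.7% of the members against 7.42% of all tested regions, and DESeq2 called 0. For H3K27ac, 58 of 344 were called (genome 5.30%), 56 with a positive term (genome 3.93%) and 2 with a negative one (genome 1.37%), or 57 and 18 when scaled to library totals. That total was 22 without D2 replicate 2 and 38 without B6 replicate 3, and it was 102 without summing libraries and 102 with the replicate block.

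As a check of the cells, the 8 embryonic stem cell markers fixed for it, Pou5f1 and Nanog among them, had median H3K27ac at their starts of 83.7 to 114 CPM in the 4 repeated lines, against 1.98 to 3.64 CPM for 8 fibroblast feeder markers, of which 6 have a region. The lowest stem cell marker held 0.325 to 0.871 CPM. At the limits of the stretch, the last region before it held H3K9me3 at 2.95 to 12.6 CPM in single repeated libraries and the first inside it 0 to 7.20 CPM. The last inside held 0 to 4.65 CPM and the first after 1.47 to 6.98 CPM. In the table of separate lines the first after held 15 to 27.1 CPM in D2 and 6.34 to 13.1 in B6. Their H3K27ac list held 11.9 to 22.4 CPM in the last region inside and 20.2 to 21.9 in the first after, where the median of all its regions was 4.04 in B6 and 4.03 in D2.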

How the data were processed

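The values are read counts per region, deposited by the authors as raw counts for 4 tables (2 marks, separate lines and repeated libraries), not normalized. The submitters' processing notes name, with no role or order, mm10, Trimmomatic 0.39, HISAT2 2.2.1, MACS 1.4.2, bedtools 2.9.2 and edgeR; mapping filters, read layout and counting settings are not given in the sources used here. In all, 2 value columns matched no sample and were not used. Region totals were 1487862 to 2559262 (H3K9me3 lines), 1538145 to 2185977 (H3K9me3 repeats), 15444270 to 18272793 (H3K27ac lines) and 8735674 to 11543469 (H3K27ac repeats) per library.

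Each whole table was filtered (filterByExpr, minimum count 10, total 15), TMM-scaled and fitted with edgeR 4.0.16 (glmQLFit, glmQLFTest; R 4.3.3), p-values being adjusted over the whole table by Benjamini-Hochberg at 0.05. Repeated libraries of a mark were fitted together, and libraries of 1 line that differed by less than sampling noise were summed. The steps were tested on simulated data. Gene values are counts summed over the regions assigned to the gene of largest overlap (GENCODE M21). The 4 tables were normalized and tested separately, and levels are compared only within a table. Named were all protein-coding genes assigned a region in either list, the 4 pseudogenes and 4 lincRNAs with the highest H3K9me3 averaged over the 10 repeated libraries and the 2 of each with the smallest change, the 4 regions highest in each mark and up to 8 regions called in neither H3K9me3 segment contrast. The members, lists and tests were chosen with earlier results of these data known. Alternatives covered DESeq2 1.42.0, other scalings and filters, the fit, the replicate number as a block and leaving out each library.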

Additional observations from a re-analysis of the deposited data

Results flagged for a closer look

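The listed results differed between the B6 and D2 backgrounds by the interaction test (B6-13D2 against B6, minus D2 against D2-13B6; edgeR quasi-likelihood on H3K27ac), in which 58 members were called (22 without D2 replicate 2, 38 without B6 replicate 3, and 102 both without summing libraries and with the replicate block); for members that rose with the D2 segment, a positive value is a larger rise on the B6 background. Among the protein-coding genes the value was 1.02 at Nlrp4f and 0.80 at 2410141K09Rik. At Nlrp4f H3K27ac was lower with the D2 segment on the D2 background (-1.38 ± 0.16). On the B6 background it was not called (-0.36 ± 0.14, adjusted p 0.063), but it was called lower under some other settings, such as without summing libraries (-0.38, adjusted p 0.0054). Among the lincRNAs it was 0.53 at Gm26754, 0.69 at Gm26715 and 0.65 at Gm40988, and -0.60 at Gm48166, whose rise was larger on the D2 background. The processed pseudogene Gm45965 had 0.79. Of the named regions, chr13:66319486-66321857 and chr13:66414189-66415411, both in introns of Gm26754, had 0.77 and 0.90, and the intergenic chr13:66629703-66631470 had 0.57. In that intergenic region H3K27ac was 31.5 ± 2.5 CPM in B6, 188 ± 5.9 in B6-13D2, 172 ± 3.7 in D2 and 42.4 ± 4.3 in D2-13B6 (SD, n = 2). D2-13B6 was above B6 there (0.44 ± 0.13, adjusted p 0.0087), and D2 was not called against B6-13D2 (-0.13 ± 0.12, adjusted p 0.48).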

How the results depend on the processing

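Of the alternative values of the member counts and shares, 341 stayed within 1.5 times the value given and 25 did not; the cause of the moves was not tested. Called genes of H3K27ac in the separate lines were 77 instead of 50 when a region counted for every gene it overlaps. H3K27ac calls in D2 against B6-13D2 (47) were 154 with library totals, 176 with a mean of at least 20 counts, 22 with no filter, 215 without summing libraries, 198 with the lines of the contrast alone and 217 with the replicate block. The H3K27ac interaction (58) gave 102 without summing and 102 with the replicate block. H3K9me3 calls in D2 against B6-13D2 (213) were 72 with DESeq2 and 50 with the filter on mean counts. In D2-13B6 against B6 (69) they were 31, 28 and, with the lines of the contrast alone, 38. With library totals, H3K27ac calls in D2-13B6 against B6 split into 55 higher and 87 lower instead of 63 and 39, those of the interaction into 57 and 18 instead of 56 and 2, and the genes of B6-13D2 against B6 into 31 and 6 instead of 31 and 2. Library totals moved the median of all tested regions by up to -0.20 (H3K27ac, D2-13B6 against B6) and 0.16 (H3K9me3 lines).

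Leaving out 1 library gave these ranges of calls. H3K9me3: lines 266 to 279 regions and 23 to 29 genes, B6-13D2 against B6 302 to 305 and 31 to 31, D2 against D2-13B6 297 to 303 and 31 to 31, D2 against B6 290 to 300, D2 against B6-13D2 27 to 255, D2-13B6 against B6 40 to 74, interaction 0 to 0. H3K27ac: lines 243 to 247 regions and 50 to 50 genes, B6-13D2 against B6 312 to 318 and 31 to 34, D2 against D2-13B6 306 to 311 and 32 to 32, D2 against B6 319 to 326, D2 against B6-13D2 10 to 103, D2-13B6 against B6 73 to 115, interaction 22 to 72. Counts that moved with a single library were H3K27ac D2 against B6-13D2 (30 without B6 replicate 3, 26 without B6-13D2 replicate 2, 10 without D2 replicate 2, 103 without D2 replicate 3), the H3K27ac interaction (38 without B6 replicate 3, 22 without D2 replicate 2), H3K9me3 D2 against B6-13D2 (27 without B6-13D2 replicate 2, 54 without D2 replicate 1) and H3K9me3 D2-13B6 against B6 (40 without B6 replicate 1, 42 and 40 without D2-13B6 replicates 2 and 3). The share difference between D2 and B6 lines was 0.543 to 0.615 (H3K9me3) and 0.502 to 0.535 (H3K27ac) percentage points. Over the named genes, 2098 of 2131 alternative values kept direction and side of the threshold, 13 lost and 20 gained a call, and 0 changed sign. Libraries with the same number did not deviate together (correlations from -0.085 to 0.20), so the numbers do not pair them; apart from the changes above the block moved no count of calls by over 1.5 times.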
